A study of Ovis aries with 9 samples.

Results

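The genes described here encode subunits of the mitochondrial respiratory chain and ATP synthase that are transcribed in the nucleus. Membership followed the symbol, under a rule set with earlier results of these data known. It took gene rows named NDUFA, NDUFB, NDUFC, NDUFS or NDUFV with a number, SDHA to SDHD, CYC1, any UQCR or ATP5 name, and COX4 to COX8 with an optional letter and number. The rule found 53 genes among the 39157 of the gene table. They comprised 25 genes of complex I, 2 of complex II, 6 of complex III, 8 of complex IV and 12 of complex V. No symbol had more than 1 row, so all 53 entered as single rows. SDHA, SDHD, UQCRFS1, COX7A2 and other subunits without a row under those symbols were not analysed here.

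Ovine granulosa cells (GCs), the steroid-producing cells that line the follicle and surround the oocyte, came from small follicles of abattoir ovaries of young thin-tailed Han ewes. Follicle contents of many ewes were pooled, so no library stood for an individual animal. Whether every culture came from the same pool is not stated. After a wash-out period in medium lacking serum and glucose, the GCs spent a further 24 h at 1 of 3 glucose concentrations, namely 0 mM for the CON group, 8.4 mM for LOW and 33.6 mM for HIGH. Each group had 3 RNA-seq libraries from ribosomal-RNA-depleted total RNA, and all groups shared the breed, the use of pooled follicles and the preceding deprivation. The CON group is therefore a glucose-free group and not a standard culture. P-values measure the spread between these libraries, which may be technical, between culture wells or between isolations of cells.

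The respiratory chain passes electrons from NADH (complex I) and succinate (complex II) through coenzyme Q to complex III, then through cytochrome c to complex IV, where oxygen is reduced. Complexes I, III and IV pump protons across the inner mitochondrial membrane, and complex V, the ATP synthase, uses the return flow to make ATP. Most subunits are encoded in the nucleus and imported, while a small core set is encoded by mitochondrial DNA, so each of these complexes except complex II draws on both genomes. GCs are known for high glycolytic use of glucose, and their mitochondria also house the first step of steroid synthesis.

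Levels are given as FPKM (fragments per kilobase of transcript, relative to library size) after scaling of each library to the same median gene, called scaled FPKM. FPKM is per length, so levels of different genes are compared on that scale. The labelled cell type was checked against fixed markers. CYP11A1, the enzyme that starts steroid synthesis, lay between 141 and 202 scaled FPKM in the 9 libraries and NR5A2 between 14.3 and 18.5, whereas FSHR, the follicle-stimulating hormone receptor that defines GCs, did not exceed 0.577. CYP19A1, FOXL2, AMH and INHBB were not analysed here. The 8 granulosa markers found had a summed level of 214 to 263 in the CON libraries, of 207 to 221 in the LOW and of 187 to 196 in the HIGH ones. Of other cell types, the 7 stromal and smooth muscle markers found were all above 1 and summed to 3018 to 4587, 3534 to 3849 and 2851 to 3963. TAGLN and ACTA2 made up most of each sum. Other members ran differently: the collagen genes COL1A1 and COL1A2 and the receptor gene PDGFRA had log2 differences of 1.54 (SE 0.39), 0.79 (SE 0.23) and 0.74 (SE 0.25) for HIGH over CON (limma adjusted p 0.651 for each). Of the epithelial markers, EPCAM did not exceed 0.619 and KRT8 had a log2 difference of -0.79 (SE 0.27) for HIGH over CON, with summed levels of 10.1 to 18.3 for CON, 11.2 to 14.8 for LOW and 5.56 to 10.7 for HIGH. The part of these cell type markers in the subunit levels was not tested. Immune markers summed to at most 22.0, theca markers to at most 8.22 and endothelial markers to at most 1.01, with CDH5 and the red cell marker ALAS2 at 0 in every library. In bulk samples such as these, fewer cells of a type and less RNA per cell cannot be told apart. CON replicate 3 and HIGH replicate 1 stood at opposite ends for most of the genes described here, and the group medians are given with and without them.

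The subunits were among the abundant transcripts of the cells. Ranked by mean level against all genes tested, 51 of 53 lay at or above the 75th percentile and 44 at or above the 90th, with a median percentile of 96.3. In every library, 51 of the 53 were at an FPKM of 1 or more. The exceptions were COX6B2 and COX6A2, isoforms best known from testis and from heart and skeletal muscle. All 53 passed the filter on low values. COX6A2 passed it only through libraries of the LOW and HIGH groups, as it was at 0 in all CON libraries, so its differences carry little weight.

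**Figure D1:**
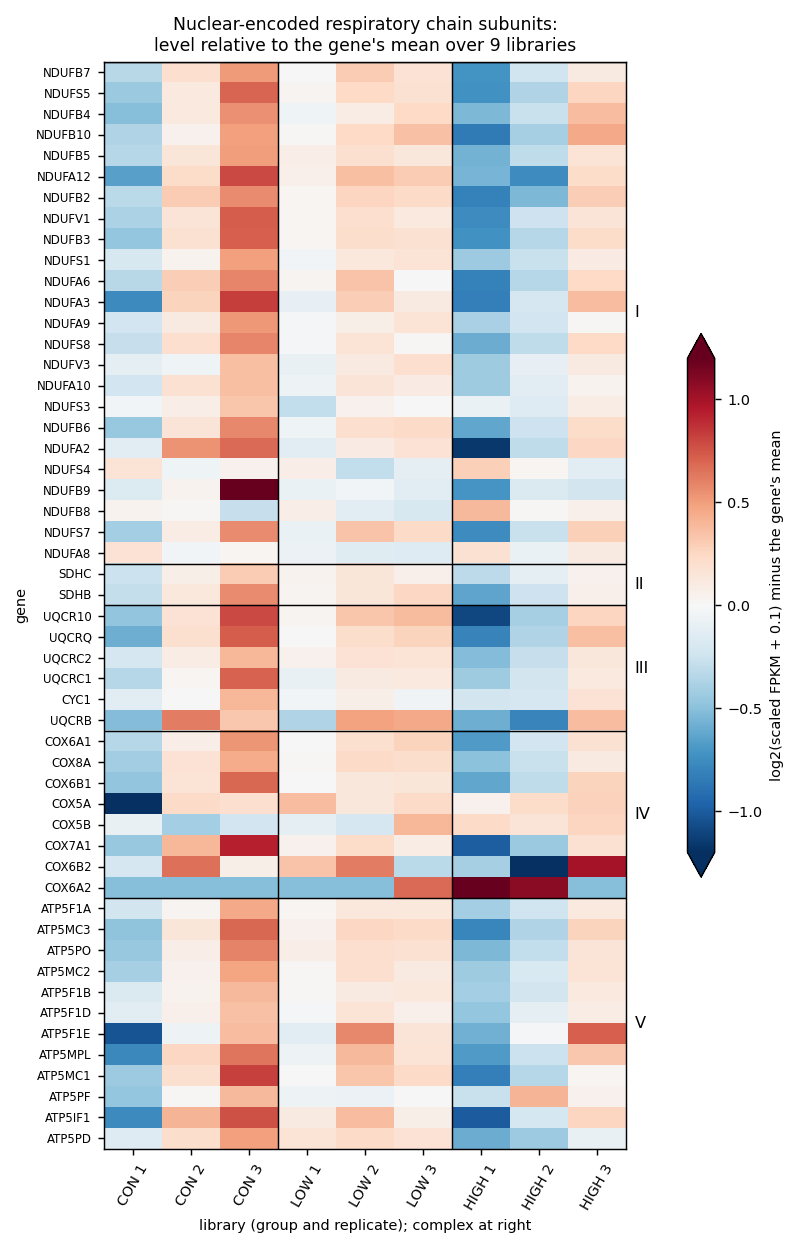
Heat map of 52 of the subunits (rows, by complex and then by mean level) in the 9 libraries (columns, by group). Colour gives log2(scaled FPKM + 0.1) minus the gene's mean over the libraries. Over all 53, CON replicate 3 was the highest library for 43 genes and HIGH replicate 1 the lowest for 40.

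In complex I, which oxidises NADH, the most abundant transcripts were the accessory subunits NDUFB7, NDUFS5 and NDUFB4, with means over the 9 libraries of 149.8, 143 and 92.2 scaled FPKM. The catalytic core was at moderate levels. NDUFV1, which carries the NADH site, read 46.1, 66.7 and 99.6 in CON, 61.1, 69.0 and 65.2 in LOW, and 35.5, 50.5 and 67.0 in HIGH. NDUFS1, the largest iron-sulfur subunit, read 42.4, 50.0 and 68.6 in CON, 47.6, 53.1 and 54.6 in LOW, and 35.9, 40.5 and 52.0 in HIGH. For both genes, CON replicate 3 was the highest library and HIGH replicate 1 the lowest, and the 3 groups overlapped. The least abundant was NDUFA8, an accessory subunit of the membrane arm, with a mean of 8.74.

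Complex II, succinate dehydrogenase, was represented by its iron-sulfur subunit SDHB and its membrane anchor SDHC. SDHB read 25.4, 33.8 and 45.9 in CON, 31.8, 34.3 and 36.7 in LOW, and 19.9, 26.0 and 32.3 in HIGH. SDHC read 65.2, 81.9 and 96.2 in CON, 80.2, 86.0 and 81.5 in LOW, and 62.7, 72.4 and 81.0 in HIGH. Both genes again ran from HIGH replicate 1 at the bottom to CON replicate 3 at the top, and the groups overlapped.

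In complex III the small subunits UQCR10 and UQCRQ exceeded the core protein UQCRC2, with means of 449, 177 and 113. UQCR10 read 304, 476 and 731 in CON, 430.4, 531 and 548 in LOW, and 198, 319 and 506 in HIGH, a wide spread inside CON and HIGH and a narrow one inside LOW. CYC1, the cytochrome c1 that hands electrons to cytochrome c, read 56.3, 61.6 and 81.4 in CON, 60.6, 64.8 and 60.1 in LOW, and 53.1, 53.8 and 69.8 in HIGH. It varied less across libraries than UQCR10, and its groups overlapped. UQCRB, the least abundant subunit of this complex, had a mean of 41.5.

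In complex IV, cytochrome c oxidase, COX6A1 led with a mean of 581, ahead of COX8A at 161 and COX6B1 at 83.9. The isoform pairs were uneven. COX6A1 exceeded its muscle counterpart COX6A2 in 9 of 9 libraries, and COX6A2 was above 0 in only 3 libraries, at 0.129 in LOW replicate 3, 0.256 in HIGH replicate 1 and 0.203 in HIGH replicate 2. COX6B1 exceeded the testis form COX6B2 in 9 of 9 libraries, by a median of 93.1-fold. COX7A1, the form best known from heart and muscle, was well detected: it read 12.98, 23.6 and 34.2 in CON, 18.5, 20.8 and 18.9 in LOW, and 8.93, 13.1 and 20.3 in HIGH. It followed the common library order, lowest in HIGH replicate 1 and highest in CON replicate 3.

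In complex V, the catalytic core genes ATP5F1A (alpha) and ATP5F1B (beta) read 343 to 624 and 115 to 199.8. Their products stand in equal copies in the enzyme, but on the FPKM scale ATP5F1A exceeded ATP5F1B by 2.90 to 3.12-fold in the 9 libraries, a narrow range. ATP5F1B overlapped 3 other genes with a mean FPKM of 1 or more, and ATP5F1A overlapped 0. The part of this overlap in the ratio was not tested. The 3 genes of subunit c, which encode the same mature ring protein, kept the order ATP5MC3, ATP5MC2, ATP5MC1 in 9 of 9 libraries. ATP5MC3 exceeded ATP5MC2 by a median of 1.33-fold (1.01 to 1.501), so the leading pair was close in some libraries, and ATP5MC2 exceeded ATP5MC1 by a median of 4.67-fold. ATP5PO, the stalk subunit that confers oligomycin sensitivity, had a mean of 237. ATP5PD, the stalk subunit d, was the least abundant at 8.99, and ATP5IF1, the inhibitor that blocks ATP hydrolysis, had a mean of 16.1.

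Summed over its genes, each complex showed the same pattern across libraries. Complex I summed to 1000.3, 1401 and 1894 scaled FPKM in CON, 1254, 1442 and 1409 in LOW, and 837, 1029.5 and 1449 in HIGH. The HIGH libraries held the lowest value and the CON libraries the highest, and LOW lay inside the range of the other groups. Complex III had the widest spread, 660 to 1419 in CON and 511 to 1052 in HIGH, a 2.15-fold and a 2.06-fold range inside a group. Complex II had the narrowest, 1.57-fold in CON and 1.37-fold in HIGH. In LOW, no complex varied by more than 1.22-fold. All 53 genes together summed to 5424 ± 1732 in CON, 5375 ± 405 in LOW and 4306 ± 1201 in HIGH (SD, n = 3). The ratios of the means were 0.991 for LOW over CON and 0.794 for HIGH over CON, a difference smaller than the SD inside CON or HIGH. Relative proportions moved little: complex I made up 25.3% to 26.6% of the summed level in the 9 libraries, complex IV 17.6% to 18.9%, complex V 34.5% to 37.3% and complex III 15.8% to 19.7%.

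**Figure D2:**
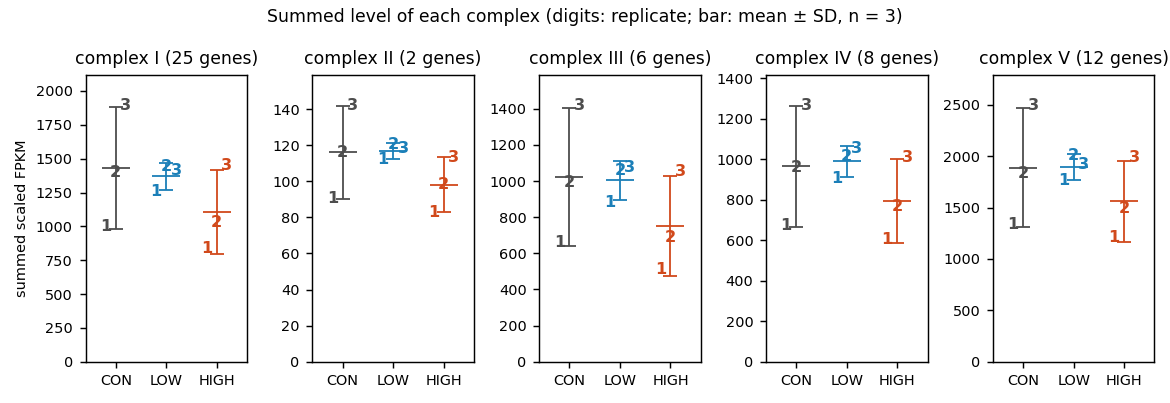
Summed scaled FPKM of each complex (y axis, from 0) in CON, LOW and HIGH; digits are replicates and bars give the mean ± SD of 3 libraries. In all 5 complexes CON replicate 3 was highest and HIGH replicate 1 lowest, and the HIGH range overlapped that of CON.

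The comparison of 8.4 mM with no glucose asked whether supplying glucose at the LOW dose changed the subunits after deprivation. None of the 53 genes was called by limma, with a call defined as a Benjamini-Hochberg adjusted p under 0.05 over all genes tested and an absolute log2 difference above 1. Of all 24365 genes tested, 0.00821% were called. At an unadjusted p under 0.05, limma found 0 subunits against 1.83% of all genes, of which 0.903% were lower and 0.928% higher in LOW. The median log2 difference (LOW over CON) was 0.01 for the subunits and 0.01 for all genes, and 24 of 53 were below 0 against 48.6% of all genes. By complex the medians were -0.01 for I, 0.03 for II, 0.04 for III, 0.08 for IV and 0.03 for V. The balance rested on opposing CON libraries. Without CON replicate 1 the median of the subunits was -0.21, with 48 of 53 below 0. Without CON replicate 3 it was 0.22, with 7 of 53 below 0. The medians of all genes were then 0.04 and -0.04. The median standard error of a subunit was 0.27 on the log2 scale, which sets the size of difference that could be resolved.

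Of the subunits with the smallest unadjusted p in this comparison, COX5B and NDUFB9, whose libraries are given with the next comparison, differed by 0.27 (SE 0.17) and -0.53 (SE 0.37), and both overlapped between LOW and CON. COX5A, a matrix-side subunit of complex IV, read 13.4, 51.9 and 50.6 in CON and 56.9, 48.4 and 51.8 in LOW. CON replicate 1 alone was low, and the log2 difference of 0.67 (SE 0.43) came with an adjusted p of 1.00 from limma. NDUFA8 read 9.83, 8.49 and 8.87 in CON and 8.29, 7.85 and 7.83 in LOW. It was the only subunit whose LOW and CON libraries did not overlap, with LOW lower, against 3.06% of all genes, and its log2 difference was -0.18 (SE 0.12). NDUFS3 and NDUFS4, of the peripheral arm of complex I, differed by -0.21 (SE 0.14) and -0.16 (SE 0.15), and ATP5F1E, the epsilon subunit, by 0.44 (SE 0.40). The ATP5F1E row includes an assembled transcript that the files name ATP5F1E-AS1, at 17.5, 32.3 and 35.9 in CON and 34.2, 45.1 and 44.1 in LOW, and the annotated ATP5F1E-201 was listed at 0 in every library.

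The comparison of 33.6 mM with no glucose addressed the higher dose. Again 0 of 53 subunits were called by limma, beside 0.00821% of all genes. Most point estimates lay on the lower side: 45 of 53 subunits were below 0 against 43.7% of all genes, with a median log2 difference (HIGH over CON) of -0.33 against 0.07 for all genes. Leaving out a library moved the median to -0.56 (CON replicate 1), -0.11 (CON replicate 3), -0.15 (HIGH replicate 1) or -0.53 (HIGH replicate 3). The medians were -0.33 for complex I, -0.29 for II, -0.35 for III, -0.31 for IV and -0.26 for V. Only 3 subunits reached an unadjusted p under 0.05 in limma, against 6.77% of all genes, and the lowest adjusted p was 0.651. These were 2 lower in HIGH against 2.67% of all genes, and 1 higher against 4.1%.

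The lower ones were ATP5PD and NDUFA2 and the higher one was COX5B. ATP5PD (chromosome 11, 55397692 to 55404868) read 7.87, 10.1 and 12.4 in CON, 9.86, 10.3 and 9.87 in LOW, and 5.77, 6.47 and 8.23 in HIGH. Its HIGH libraries overlapped CON through CON replicate 1 but lay below every LOW library, and the log2 difference from CON was -0.56 (SE 0.19, limma adjusted p 0.651). Without HIGH replicate 1 it was -0.44, with an unadjusted p above 0.05, and without both HIGH replicate 1 and CON replicate 3 it was -0.28. NDUFA2 (chromosome 5, 49158406 to 49166046), an accessory subunit with a thioredoxin-like fold, read 23.7, 37.8 and 41.6 in CON and 11.6, 21.1 and 30.9 in HIGH. The groups overlapped, the log2 difference was -0.77 (SE 0.33, limma adjusted p 0.651), and it moved to -0.39 without HIGH replicate 1. Of the fits that left out 1 library, those without CON replicate 1 or HIGH replicate 3 kept an unadjusted p under 0.05 and the others did not. Transcripts assembled from the reads held 90.2% to 99.9% of the NDUFA2 level in each library. The annotated NDUFA2-201 did not exceed 2.14.

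COX5B (chromosome 3, 103447213 to 103450226), the zinc-binding subunit of complex IV, moved the other way. It read 22.1, 17.8 and 20.1 in CON, 21.9, 20.5 and 31.1 in LOW, and 27.7, 26.2 and 28.3 in HIGH. Every HIGH library lay above every CON library, a pattern found for 1 subunit and for 5.2% of all genes. The log2 difference was 0.46 (SE 0.17, limma adjusted p 0.651), and it ranged from 0.38 without CON replicate 2 to 0.53 without CON replicate 1. The unadjusted p was above 0.05 without CON replicate 2 or without HIGH replicate 3.

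NDUFB9 (chromosome 9, 28422076 to 28431883), an accessory subunit of the membrane arm, was the only subunit with every HIGH library below every CON library, against 4.19% of all genes. It read 15.2, 17.6 and 47.9 in CON, 16.2, 16.7 and 15.6 in LOW, and 10.5, 15.1 and 14.7 in HIGH. CON replicate 3 stood 2.91-fold above the mean of the other CON libraries, and the log2 difference of -0.82 (SE 0.37) moved to -0.31 without it. COX7A1 and ATP5MC1 differed by -0.71 (SE 0.36) and -0.57 (SE 0.31). On the higher side, NDUFB8, another membrane-arm subunit, differed by 0.23 (SE 0.15) and COX5A by 0.61 (SE 0.43), the latter again through CON replicate 1. The listed difference of COX6A2, 1.14 (SE 0.57), rests on values near 0.

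**Figure D3:**
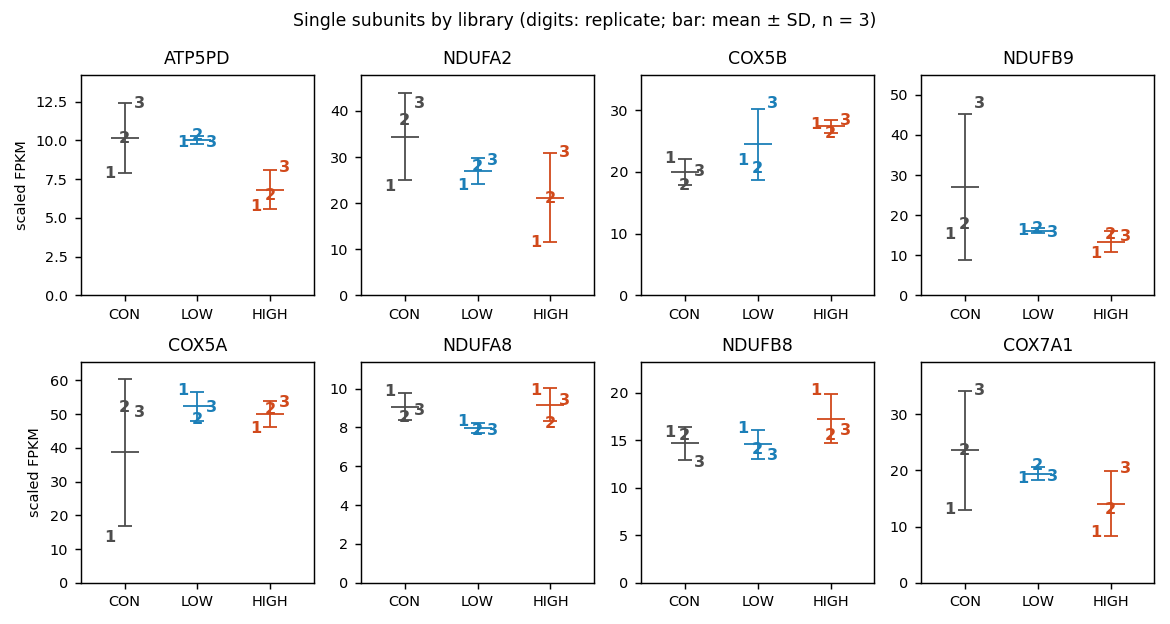
Scaled FPKM (y axis, from 0) of 8 subunits in CON, LOW and HIGH; digits are replicates and bars give the mean ± SD of 3 libraries. COX5B in HIGH lay above all CON libraries, ATP5PD in HIGH lay below all LOW libraries, and CON replicate 3 of NDUFB9 and CON replicate 1 of COX5A stood apart.

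The comparison of the 2 glucose doses gave a like picture and shares the HIGH libraries with the preceding comparison, so the values are not independent of it. limma called 0 of 53 subunits, beside 0.00821% of all genes. The median log2 difference (HIGH over LOW) was -0.34 against 0.06 for all genes, with 46 of 53 below 0 against 44.5% of all genes. Without HIGH replicate 1 it was -0.15, and without HIGH replicate 3 it was -0.56. The medians were -0.32 for complex I, -0.31 for II, -0.39 for III, -0.34 for IV and -0.32 for V. ATP5PD was the only subunit at an unadjusted p under 0.05, against 7.67% of all genes, or 2.46% for those lower in HIGH. Its log2 difference was -0.56 (SE 0.19, limma adjusted p 0.5997). ATP5PD and NDUFB9 were the 2 subunits with all HIGH libraries below all LOW libraries, against 7.77% of all genes. SDHB, UQCRC2 and NDUFB2 differed by -0.42 (SE 0.23), -0.35 (SE 0.20) and -0.52 (SE 0.30), while NDUFA8, NDUFB8 and NDUFS4 differed by 0.19 (SE 0.12), 0.24 (SE 0.15) and 0.17 (SE 0.15).

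**Figure D4:**
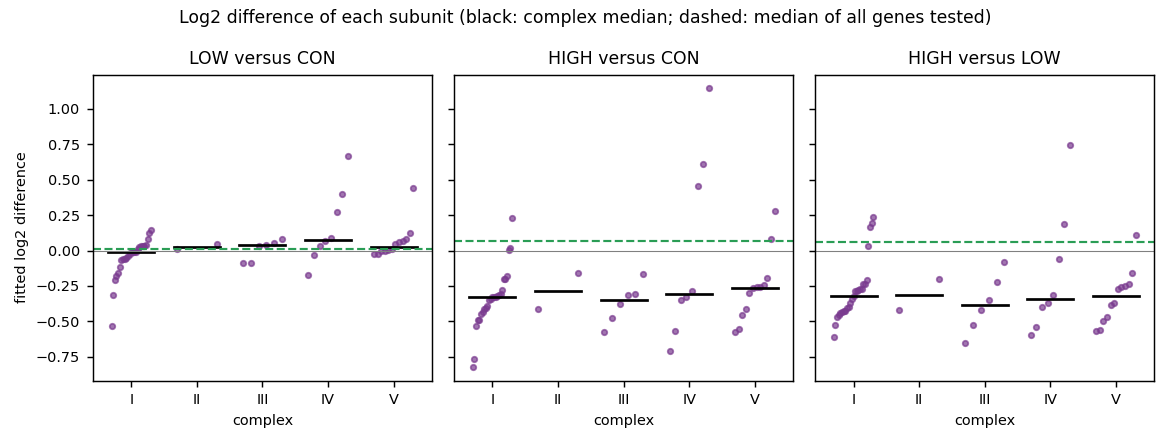
Fitted log2 differences (y axis) of the 53 subunits by complex (x axis) in the 3 comparisons. Points are genes, black bars the median of a complex and dashed lines the median of all genes tested. In both comparisons with HIGH the complex medians lay between -0.26 and -0.39, and no subunit was called.

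The order of libraries was shared by most subunits. CON replicate 3 was the highest library for 43 of 53 and HIGH replicate 1 the lowest for 40, and those 40 were all highest in CON replicate 3. Among the 5016 genes tested with a mean of 10 or more, which are closer in level to the subunits, these shares were 53.8% and 46.9%. The ratio of CON replicate 3 over HIGH replicate 1 had a median of 2.21 over the 51 subunits with a mean of 1 or more, and of 1.31 over those 5016 genes. A few subunits ran against the order. NDUFA8, NDUFB8, NDUFS4 and COX6A2 were highest in HIGH replicate 1, and NDUFB8 was lowest in CON replicate 3. Without both of these libraries the median difference of the subunits was 0.050 for HIGH over CON, with 33 of the 52 then tested above 0, and -0.15 for HIGH over LOW. Those 2 libraries were the ends of the order, so their removal was bound to raise the median against CON, but not to carry it past 0. The cause of that turn was not tested. In the same setting 45 of the 52 were below 0 for HIGH over LOW. Without CON replicate 3 alone, 42 of 53 were below 0 for HIGH over CON.

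Another library property ran opposite to the subunits. Genes assembled from the reads without a symbol, and at a scaled FPKM of 0.5 or more, numbered 4745, 3529 and 2682 in CON, 3858, 3493 and 3666 in LOW, and 5067, 4365 and 3955 in HIGH. The library with the fewest such genes, CON replicate 3, had the highest summed subunit level (7216), and the library with the most, HIGH replicate 1, had the lowest (3239.7). Of the 7 stromal and smooth muscle markers, TAGLN, ACTA2 and DCN were higher in CON replicate 3 than in HIGH replicate 1, as the subunits were, with TAGLN at 2832 and 921. COL1A1, COL1A2, COL3A1 and PDGFRA ran the other way, with COL1A1 at 16.1 and 126. The part of these properties in the subunit levels was not tested.

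**Figure D5:**
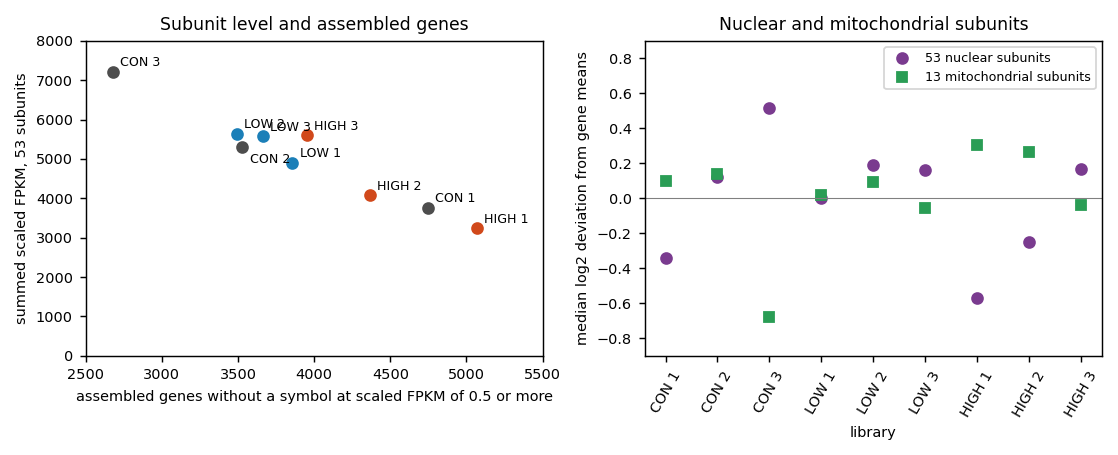
Left, summed scaled FPKM of the 53 subunits (y axis) against the number of assembled genes without a symbol (x axis, not starting at 0) for each library. Right, median log2 deviation from each gene's mean for nuclear-encoded and mitochondrially encoded subunits by library, with CON replicate 3 at 0.52 for the nuclear set and -0.68 for the mitochondrial set.

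The subunits encoded by mitochondrial DNA did not follow the nuclear ones in the libraries at the extremes. All 13 were found, and their median log2 deviation was -0.68 in CON replicate 3 and 0.31 in HIGH replicate 1, where the nuclear set stood at 0.52 and -0.57. ND4, a proton-pumping subunit of complex I, read 657, 417 and 135 in CON, 441, 373 and 345 in LOW, and 697, 566 and 356 in HIGH. CYTB, the cytochrome b of complex III, read 694, 596 and 258 in CON, 592, 564 and 513 in LOW, and 768, 718 and 547 in HIGH. For both, CON replicate 3 was lowest and HIGH replicate 1 highest, and the groups overlapped. COX1, the catalytic subunit of complex IV, stayed between 2786 and 3448, and ND3 and COX2 were highest in CON replicate 3. Of the 11 mitochondrial genes tested, limma found 0 at an unadjusted p under 0.05 in any comparison; the median differences were 0.14 for LOW over CON, 0.32 for HIGH over CON and 0.20 for HIGH over LOW.

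Other genes of the pathway were taken from fixed lists of assembly factors, regulators, coenzyme Q synthesis, electron entry, exchange across the membrane and related subunits, the mitochondrial genes included. Of 151 symbols, which include alternative names of the same gene, 102 were found and 97 tested, and limma called none in any comparison. At an unadjusted p under 0.05 there were 0 higher and 1 lower for LOW over CON, 2 higher and 7 lower for HIGH over CON, and 2 higher and 3 lower for HIGH over LOW. Over all genes the shares higher and lower were 0.928% and 0.903%, 4.1% and 2.67%, and 5.21% and 2.46%. The medians of the 97 were 0.01, -0.14 and -0.16. Of the 15 complex IV assembly factors tested, 15 were below 0 for HIGH over CON, against 43.7% of all genes, with a median of -0.27, and 1 had an unadjusted p under 0.05. Most of them were highest in CON replicate 3, as the subunits were. COX14 read 19.1 there and 1.11 and 1.14 in CON replicates 1 and 2. The 18 regulators had a median of 0.01 for HIGH over CON.

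NDUFA4L2, a relative of a complex IV subunit that is known to be induced in hypoxia, read 8.94, 8.02 and 8.77 in CON, 8.13, 10.5 and 8.21 in LOW, and 14.6, 13.97 and 10.7 in HIGH. All HIGH libraries lay above all others. Of all genes, 5.2% had HIGH wholly above CON and 11.2% had HIGH wholly above LOW. The log2 difference of NDUFA4L2 over CON was 0.59 (SE 0.16, limma adjusted p 0.651). GPD2, the glycerol-3-phosphate dehydrogenase that feeds electrons to coenzyme Q, read 5.83, 6.33 and 6.86 in CON, 5.44, 6.26 and 5.83 in LOW, and 4.30, 4.69 and 4.92 in HIGH. Its HIGH libraries lay below all others. Of all genes, 4.19% had HIGH wholly below CON and 7.77% had HIGH wholly below LOW. The log2 difference of GPD2 from CON was -0.44 (SE 0.13, limma adjusted p 0.651). PPRC1, a relative of the coactivator PGC-1, read 1.23, 0.707 and 0.615 in CON, 0.780, 0.788 and 0.629 in LOW, and 3.04, 1.74 and 0.960 in HIGH. It was highest in HIGH replicate 1, and its HIGH and CON libraries overlapped. Every HIGH library of PPRC1 lay above every LOW library. Its log2 difference was 1.00 (SE 0.39, limma adjusted p 0.651) over CON and 1.14 (SE 0.39, limma adjusted p 0.602) over LOW. COX11, a copper chaperone of complex IV, was lower in LOW than in CON by 0.30 on the log2 scale (SE 0.13). It read 19.2, 18.2 and 21.1 in CON and 16.3, 16.02 and 15.1 in LOW. These libraries did not overlap, with LOW lower, against 3.06% of all genes. COQ2, which attaches the side chain of coenzyme Q, had the next smallest p in that comparison, with a log2 difference of -0.26 (SE 0.13) that did not reach an unadjusted p of 0.05.

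Among the regulators, NRF1, a transcription factor for many respiratory genes, read 3.92, 2.78 and 1.96 in CON, 3.08, 2.63 and 2.71 in LOW, and 4.47, 3.75 and 3.64 in HIGH. The HIGH libraries of NRF1 overlapped CON and lay above all LOW libraries. Of all genes, 11.2% had HIGH wholly above LOW. TFAM, which packages and transcribes mitochondrial DNA, was lowest in CON replicate 3 at 4.60 and highest in HIGH replicate 1 at 8.37. GABPA, the other factor known for these promoters, stayed between 10.6 and 13.7. PPARGC1A, which encodes the coactivator PGC-1 alpha, was at or below 0.250 in 7 libraries but at 1.56 in CON replicate 3 and 1.22 in LOW replicate 3. COX4I1, the common form of the complex IV subunit that the naming rule left out, overlapped among the groups: it read 59.6, 95.8 and 121 in CON, 88.6, 106 and 98.7 in LOW, and 63.5, 77.0 and 102 in HIGH. CYCS and ESRRA were not analysed here, and the listed ATPIF1 is the older symbol of ATP5IF1, described above.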

How the data were processed

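RNA from 9 cultures (3 per group) was sequenced as ribosomal-RNA-depleted, paired-end libraries. Per the study's methods, reads were aligned with Hisat2, assembled with StringTie and counted with HTSeq v0.6.0; the submitters' notes also list STAR 2.5.1b and TopHat. The genome build is not given in the sources used here, and coordinates are those of the deposited table. Values are the FPKM deposited by the authors per gene and transcript. The deposited count tables hold FPKM multiplied by genomic span and a factor per library (48.0 to 71.3 per kb at an FPKM of 1), a score in arbitrary units, so fragment counts per gene were not used here, and no counting interval or count model was applied.

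Each library was divided by the median over 11689 genes at an FPKM of 1 or more in all libraries (factors 0.939 to 1.11), which moves all genes of a library together. Genes that reached an FPKM of 0.1 in 3 libraries and spanned 300 bases or more were tested with limma 3.58.1 (R 4.3.3) on log2(FPKM + 0.1), with 3 groups in 1 model and a trend; this scale understates changes of low genes. p-values were adjusted by Benjamini-Hochberg over 24365 genes. The method was tested on simulated data with independent noise and large planted changes. That simulation does not show how the method handles small differences or shifts shared by many genes of a library. Summaries used Python 3.11.15 and pandas 2.3.3.

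The genes and lists were chosen with earlier results of these data known. Genes were named if called, if among the 5 smallest p-values in a direction of a comparison, by rank of level in a complex, as isoforms, catalytic subunits or listed regulators; of the other lists, the 2 smallest p-values per comparison were considered. NDUFA12, ND4, CYTB and the markers singled out were named after their values were seen. The values of 1 complex I subunit are not reported here. Alternatives were another pseudocount, filter and scaling, the replicate number as block, fewer groups, and leaving out libraries. Overlap with another expressed gene (mean FPKM of 1 or more) held for 16 subunits, among them NDUFA2, COX6A1, UQCR10 and ATP5F1B, and strand use in counting was not stated.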

Additional observations from a re-analysis of the deposited data

How the results depend on the processing

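No subunit had an adjusted p under 0.05 in any of 19 settings, and the lowest adjusted p was 0.173. The planned count models were not run, because the deposited counts are not read counts. The number of subunits at an unadjusted p under 0.05 was 0 for LOW versus CON, 3 for HIGH versus CON and 1 for HIGH versus LOW. Without scaling these were 1, 8 (8.23% of all genes) and 1, and with only the groups compared HIGH versus LOW gave 4 (13.3%). Leaving out a library gave 0 to 1, 1 to 32 and 0 to 19. The 32 came without CON replicate 1, when 26.1% of all genes passed, and 17 (13.7%) and 19 (16.05%) came without HIGH replicate 3. Under the other scalings the median for HIGH versus CON was -0.27 to -0.37, and that for LOW versus CON was -0.10 without scaling. The median for HIGH versus CON was -0.56 without CON replicate 1, -0.11 without CON replicate 3, -0.15 without HIGH replicate 1 and -0.53 without HIGH replicate 3. Without CON replicate 3 and HIGH replicate 1, a setting chosen after seeing the data, it was 0.050. For LOW versus CON the median then was 0.22, and -0.21 without CON replicate 1. The cause was not tested.

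With replicate number as a block, 19 subunits reached an unadjusted p under 0.05 for HIGH versus CON (15.1% of all genes) and 20 for HIGH versus LOW (16.04%). The labels give no pairing, and the check required every same-number pair of deviations to correlate above 0.1. This held in 5 of 9 pairs (-0.03 to 0.42): all 3 of replicate 1, none of replicate 2. A library correlated best with its own number in 11 of 18 combinations, where 1 in 3 would do so with no relation, and the summed subunit level was lower in HIGH than in CON at each number. These are hints from the data, not from the design.

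The lack of fragment counts per gene and 3 libraries a group limit these data: the median standard error was 0.27, and an exact test of 3 against 3 could not go below 0.1.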

Other observations

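The transcript table, with 93 transcripts of the 53 subunits, showed libraries that drew on different transcripts of the same gene. Of the subunits, 29 had 1 transcript, 23 had at least 1 transcript assembled from the reads, and in 10 the assembled transcripts held over 90% of the gene's FPKM summed over the 9 libraries. COX5A changed its leading transcript between libraries of the same group: the assembled transcript TCONS_00107446 read 33.0 and 29.3 in CON replicates 2 and 3, 42.2 in LOW replicate 1 and 34.0 in HIGH replicate 2, and 0 in the other 5 libraries, where the annotated COX5A-201 led, in CON replicate 1 with 6.72 against 6.70 for another assembled transcript. The summed COX5A level was at 45.8 to 56.9 in all libraries except CON replicate 1 (13.4). NDUFA12, named after its values were seen, had 61.6% of its FPKM in an assembled transcript in HIGH replicate 2 and 1.60% to 18.1% in the other libraries.

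The high NDUFB9 value of CON replicate 3 lay in the annotated transcript NDUFB9-201, at 45.1 against 6.52 to 13.7 in the other libraries, while its assembled transcript stayed between 2.78 and 4.30. The 2 transcripts of COX5B differed in their spread: the annotated one read 7.87, 7.50 and 14.95 in CON, 10.7, 11.6 and 20.6 in LOW, and 10.8, 12.4 and 15.7 in HIGH, and the assembled one 14.2, 10.3 and 5.13, 11.2, 8.91 and 10.5, and 16.9, 13.8 and 12.5. The groups overlapped for the annotated transcript. For the assembled one, every HIGH library lay above every LOW library, and CON overlapped both groups. How fragments were shared among transcripts was not tested.

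The subunit genes lay on 18 chromosomes with none on X. They were compact, with a median genomic span of 7177 bases against 26281 for tested genes with a symbol. Pairs within 200 kb of each other included ATP5F1D and NDUFS7 on chromosome 5, and NDUFV1 and NDUFS8 on chromosome 21.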
